A study of Mus musculus with 6 samples.

Results

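Mzb1, Sdc1, Cd37, Cd22, Cd83, Ms4a1 and Prdm1 are 7 genes known from mature B cells and plasma cells. They were measured here in Ly6D-negative common lymphoid progenitors, early bone marrow cells that precede the B, T and natural killer lineages. The 7 genes were taken by name from 22180 genes with a probe set of their own on the array, each read from the brightest of its probe sets by the 6-array mean. The list was chosen by gene names with the mutant minus control differences of these same arrays in view, so its differences between the groups are a description and carry no test.

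The mutant group was OcnCre+;iDTR+/- and the control group OcnCre-;iDTR+/-, with 3 arrays in each. Cre is driven by the osteocalcin promoter, which is active in osteoblasts and their descendants, and it switches on a diphtheria toxin receptor (iDTR) in those cells. Every animal of both groups carried 1 iDTR allele, was 6 to 8 weeks old and had toxin injected each day for 4 weeks, so that in the labels the controls differ by the lack of Cre. Cells were sorted on the day after the last injection as lineage-low, Kit+, Sca+, CD127+, Thy1.2- and Ly6D-. The labels do not say whether a replicate was 1 mouse or a pool, so the spread between replicates may be partly technical. All values are log2 intensities, and 3 arrays a group limit their precision.

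B cell development runs from progenitors that first open the B lineage programme, through cells that assemble an antigen receptor, to mature B cells that leave the marrow. On stimulation a mature B cell can become a plasma cell, which shuts down much of the B cell programme and turns to antibody secretion. Some proteins of these last steps are also made earlier: in mouse marrow syndecan-1 is present on B cell precursors, lost on mature B cells and made again by plasma cells.

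Transcripts of the sort gate's genes went only in part with its label, which refers to proteins. The tissue field of the labels reads stromal cells, but Dntt, the terminal transferase gene of lymphoid progenitors, was at 10.61 to 10.93 in mutants and 10.93 to 11.04 in controls, and Il7r, which encodes CD127, at 9.72 to 9.80 in mutants and 9.81 to 10.35 in controls. Kit, a second gene of the gate, was at 6.96 to 7.30 in mutants and 6.96 to 7.41 in controls, while Dntt is no gate marker. Lymphoid genes were not the only bright ones. The 12 listed myeloid genes had means over the 6 arrays from 6.34 (Csf1r) to 11.76 (S100a8). Of 8 listed osteoblast and stroma genes 5 were tested, with means from 5.22 (Bglap) to 8.09 (Alpl). Ly6d, whose protein the gate excluded, had a mean of 7.57 over the 6 arrays, so its transcript went against the Ly6D- label. The name of late B and plasma cells held only in part for what was measured. Ms4a1 and Prdm1 had means over the 6 arrays of 4.07 and 4.00. They were among the 8872 genes in the lowest 40% by that mean (under 4.84), which were not tested. As a guide to background, chosen after the data were seen, 1088 olfactory receptor genes, which blood cells are not known to use, had means with a median of 3.37 and a 95th percentile of 5.52, below the mean of Ly6d. Of these receptor genes 24.4% had a higher mean than Ms4a1 and 26.6% a higher mean than Prdm1, against 4.60% for Cd83 and under 1% (0.184% to 0.368%) for Mzb1, Sdc1, Cd37 and Cd22. The deposited values carry no detection call, and probe sets differ in response, so this says only that Ms4a1 and Prdm1 could not be told from background.

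Mutant replicate 2 stood apart, with correlations of 0.935 to 0.954 to the remaining arrays, among which they were 0.973 to 0.989 (across probe sets). The brightest 10% of tested genes had a median of −0.42 against the control mean on mutant replicate 2, −0.18 on mutant replicate 3 and −0.00 on mutant replicate 1. The Y-linked gene Eif2s3y was at 7.74, 7.31 and 4.77 on mutant replicates 1, 2 and 3 and at 4.88, 7.82 and 7.85 on control replicates 1, 2 and 3, so the low arrays were 1 of each group. The labels give no scan date or other batch.

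The DNA before the starts of these genes was compared. RefSeq windows of build GRCm38.p6 were searched for Sdc1, Cd37, Cd22 and Prdm1. Cd83 and Ms4a1 had no window, and Mzb1 was left out of the search. Those of Cd22, Cd37 and Sdc1 are shown because these genes had lower mutant means and each held a match to a searched motif. Each line is the 250 bases before the start, 5′ to 3′ on the gene's strand, with the matches in capitals.
Cd22: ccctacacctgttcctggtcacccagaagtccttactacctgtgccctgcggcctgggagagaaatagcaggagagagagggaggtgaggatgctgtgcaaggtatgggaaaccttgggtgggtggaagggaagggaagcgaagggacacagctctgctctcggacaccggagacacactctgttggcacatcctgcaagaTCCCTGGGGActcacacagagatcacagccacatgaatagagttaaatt
Cd37: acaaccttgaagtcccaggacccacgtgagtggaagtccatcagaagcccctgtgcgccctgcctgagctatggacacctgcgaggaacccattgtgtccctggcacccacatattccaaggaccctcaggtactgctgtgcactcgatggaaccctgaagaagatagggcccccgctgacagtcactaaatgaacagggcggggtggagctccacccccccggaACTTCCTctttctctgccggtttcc
Sdc1: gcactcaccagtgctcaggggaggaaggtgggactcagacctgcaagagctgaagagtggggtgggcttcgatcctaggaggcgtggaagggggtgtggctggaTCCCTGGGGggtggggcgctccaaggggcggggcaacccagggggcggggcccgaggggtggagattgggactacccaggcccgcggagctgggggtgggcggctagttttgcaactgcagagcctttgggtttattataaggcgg
The Cd22 stretch lies at chr7:30879029-30879278 (minus strand), that of Cd37 at chr7:45238840-45239089 (minus strand) and that of Sdc1 at chr12:8771146-8771395 (plus strand). An EBF-type motif, CCCNNGGGA on either strand, was found in Cd22 at positions −49 to −40 from the start, where matches on the 2 strands overlap, and in Sdc1 at −146 to −138. It was present in 6.56% of 32851 promoter windows of 300 bases. Cd37 held a PU.1-type motif, AGGAAGT on either strand, at −25 to −19, and 9.35% of windows hold one. The octamer ATGCAAAT (1.74% of windows) and the PRDM1-type motif GNGAAAGT (4.21%) had no match in the 4 windows, and Prdm1 had no match to any of the 4 motifs. These are letter matches and not evidence of binding.

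Mzb1 had the largest difference of the 7 genes. It encodes a chaperone of the endoplasmic reticulum that helps antibody chains to fold and leave the cell, and it is made in B lineage cells and in plasmacytoid dendritic cells. Mzb1 was at 8.95, 7.99 and 8.25 in mutant replicates 1, 2 and 3, against 8.83, 9.84 and 9.57 in control replicates 1, 2 and 3. The groups overlapped through 1 pair, since mutant replicate 1 lay above control replicate 1. The group means were 8.40 ± 0.49 in mutants and 9.41 ± 0.52 in controls (SD, n = 3 each), a difference of −1.02 ± 0.31 on the log2 scale (SE from limma), or 0.494 of the control level. It ranked 16 from the lowest among the differences of 13308 tested genes, a place that follows from how the list was chosen. Within each group the Mzb1 values spanned about as much as the means differed, 0.957 in mutants and 1.01 in controls. Leaving out control replicate 1 gave −1.31 and leaving out control replicate 2 gave −0.80.

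Sdc1 encodes syndecan-1 (CD138), the heparan sulphate proteoglycan by which plasma cells are recognised. Its brighter probe set was at 7.73, 6.81 and 7.77 in mutant replicates 1, 2 and 3, against 7.91, 8.16 and 8.02 in controls 1, 2 and 3. All mutant values lay below all control values, and Sdc1 was the only one of the 7 genes of which this was true, where 9.99% of tested genes had this order and 5.4% the opposite one. The means were 7.44 ± 0.54 in mutants and 8.03 ± 0.13 in controls (SD, n = 3 each), with a difference of −0.59 ± 0.25 (SE). Mutant replicate 2 was far below the others, and without it the difference was −0.28. A second probe set of Sdc1 was dimmer, at 5.75, 5.69 and 5.92 in mutants and 5.99, 5.92 and 6.05 in controls. On it the difference was −0.20, mutant replicate 2 did not stand apart, and the groups overlapped narrowly through mutant replicate 3 and control replicate 2. The 2 probe sets therefore had the same sign and unequal sizes.

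Cd37 encodes a tetraspanin, a membrane protein that organises receptors on the surface of B cells. It was at 7.83, 7.97 and 7.45 in mutants, against 7.88, 8.40 and 8.41 in controls. Control replicate 1 lay among the mutants, and the other controls lay above all mutants. The difference was −0.48 ± 0.19 (SE) between means of 7.75 ± 0.27 in mutants and 8.23 ± 0.30 in controls (SD, n = 3 each). Without control replicate 1 it was −0.65, and with brightness trends between arrays removed by cyclic loess it was −0.29.

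Cd22 encodes a sialic acid-binding lectin that dampens signals of the B cell receptor by recruiting the phosphatase encoded by Ptpn6. Its values were 7.60, 7.17 and 7.18 in mutants and 7.40, 7.73 and 7.55 in controls. Mutant replicate 1 lay inside the control range and control replicate 1 inside the mutant range. The difference, −0.24 ± 0.16 (SE), was of the size of the SDs, 0.25 in mutants and 0.17 in controls (n = 3 each). It was −0.09 after cyclic loess, −0.10 with quantile normalization repeated, −0.38 without mutant replicate 1 and −0.15 without control replicate 2.

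Cd83 differed from these genes in sign. It encodes a surface protein of activated B cells and dendritic cells that protects MHC class II molecules from the ubiquitin ligase encoded by Marchf1. Cd83 was at 5.79, 5.87 and 5.39 in mutants, against 5.57, 5.32 and 5.60 in controls. Mutant replicates 1 and 2 were above all controls and mutant replicate 3 was below controls 1 and 3. The difference was 0.19 ± 0.16 (SE), and leaving out mutant replicate 2 or 3 gave 0.09 or 0.33. Without control replicate 2 it was 0.10.

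The remaining genes were dim in both groups. Ms4a1 encodes CD20, a B cell surface protein that plasma cells lose. It was at 4.06, 4.03 and 4.23 in mutants and at 4.06, 4.14 and 3.92 in controls, a difference of 0.06 that turned to −0.00 with arrays centred on their medians and to −0.03 after cyclic loess or repeated quantile normalization. Prdm1 encodes Blimp-1, the repressor that starts plasma cell formation, and was at 4.15, 4.04 and 3.97 in mutants and 4.11, 3.65 and 4.05 in controls. Its difference of 0.11 rested on the low value of control replicate 2, without which it was −0.03.

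**Figure D1:**
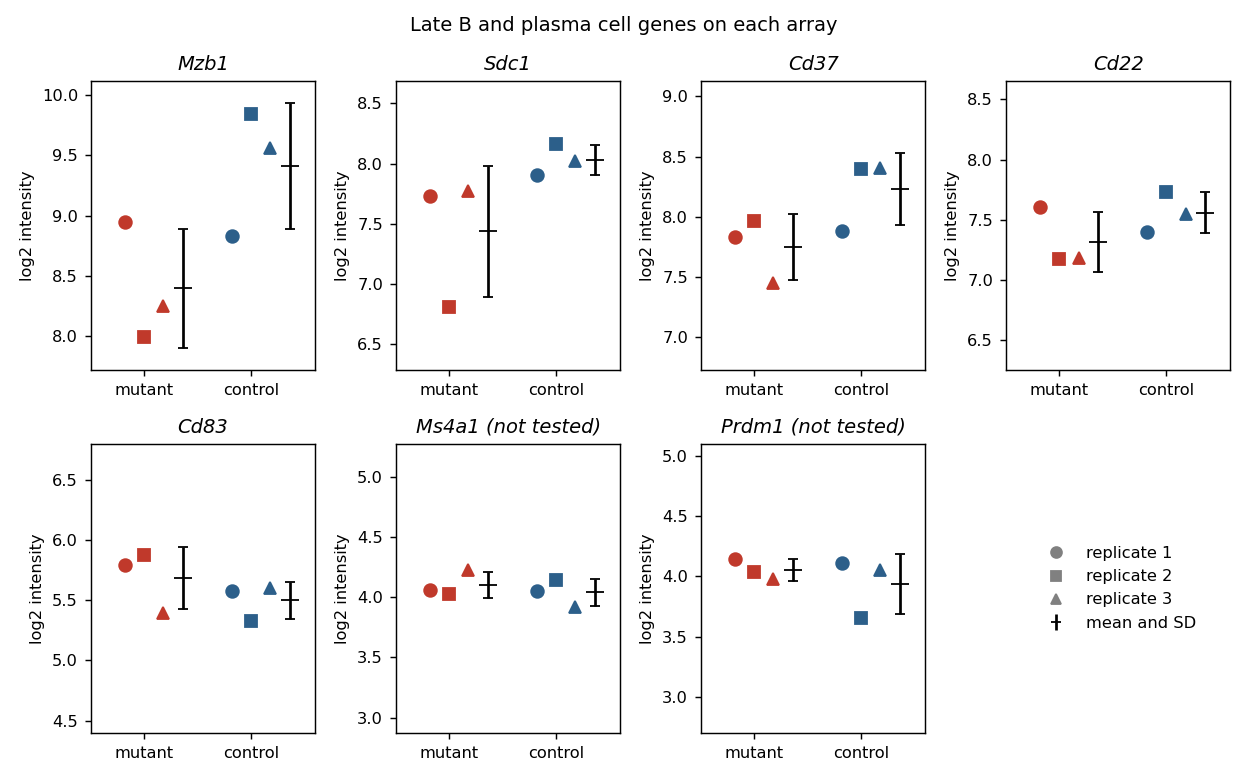
Log2 intensity (vertical axis, the same span in each panel) of the 7 genes on the 3 mutant arrays (red, left) and the 3 control arrays (blue, right), with the symbol giving the replicate number and the black bar the mean and SD of the group. Mutant values of Sdc1 lie below all its control values, while the groups overlap for the other 6 genes, and Ms4a1 and Prdm1 sit near 4 in both groups.

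Among the 7 genes 4 had a lower and 3 a higher mutant mean, where 57.5% of tested genes had a lower one. The median difference of the 7 was −0.24, beside −0.04 for the 13308 tested genes and 0.03 for all 22180. No gene on the array passed an adjusted p of 0.05 in limma (0% of 13308 tested; at an unadjusted p under 0.05 there were 801 lower genes, 6.02%, and 267 higher ones, 2.01%), and this includes the 5 members that were tested. The SE of Mzb1 was the largest of these 5, at 0.31, against 0.16 for Cd22 and Cd83.

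**Figure D2:**
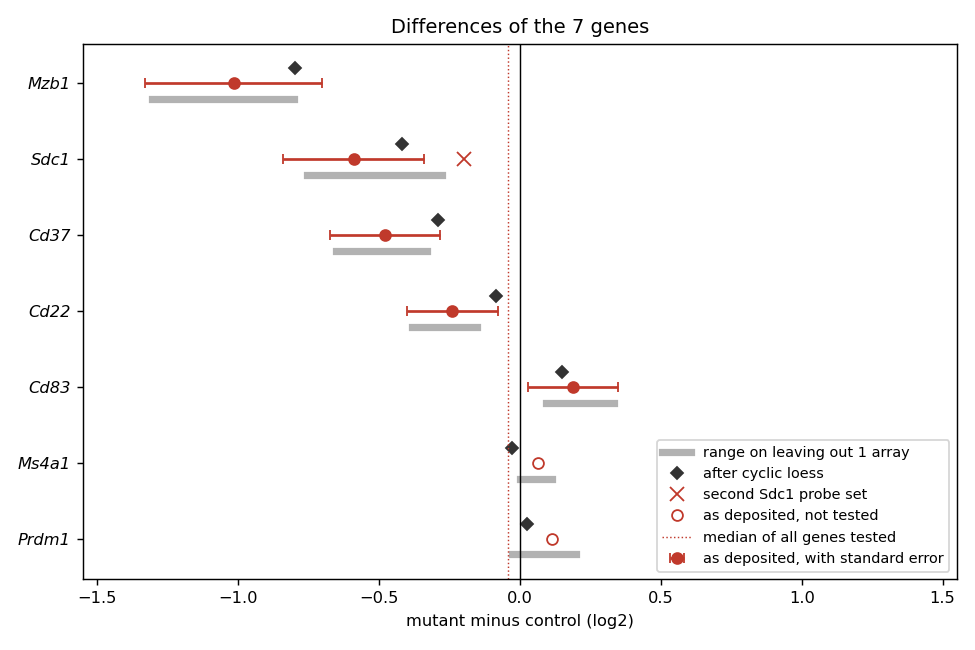
Mutant minus control difference (log2, horizontal axis) of each gene as deposited (circles, with limma's standard error for the 5 tested genes and open circles for the others), after cyclic loess (diamonds) and as the range on leaving out 1 array (grey bars). Mzb1, Sdc1, Cd37 and Cd22 lie left of 0 under each of these settings, and the second Sdc1 probe set (cross) is at −0.20.

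The genes with a lower mutant mean were partly alike in which arrays were lowest within a group. Control replicate 1 was the lowest control for Mzb1, Sdc1 (brighter probe set), Cd37 and Cd22, by 0.74 below the next control for Mzb1 and by 0.11 for Sdc1. On the second Sdc1 probe set control replicate 2 was lowest, at 5.92, and control replicate 1 was at 5.99. Mutant replicate 2 was the lowest mutant for Mzb1, Sdc1 and Cd22, and mutant replicate 3 for Cd37. Distances between members were taken as the root mean square difference over the 6 arrays, each gene centred on its own mean. Cd37 and Cd22 were 0.24 apart and Mzb1 and Cd83 0.77 apart. This distance did not set the lower genes apart from the rest. Cd22 was 0.25 from the dim gene Ms4a1, 0.33 from Sdc1 and 0.47 from Mzb1. Cd37 was 0.40 from Ms4a1, 0.45 from Mzb1 and 0.46 from Sdc1. Cd83 was nearest to Prdm1, at 0.14, both being lowest on control replicate 2.

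Other genes were also uneven between these arrays. Ly6d, whose protein the gate excluded, was at 7.57 and 7.30 in mutant replicates 1 and 2, lower again in mutant replicate 3, and at 7.18, 8.14 and 8.25 in control replicates 1, 2 and 3. Spib, a transcription factor gene of B and plasmacytoid dendritic cells, was at 7.70, 7.68 and 7.11 in mutants and 7.23, 8.89 and 8.60 in controls. The neutrophil elastase gene Elane ran the other way, at 10.56, 9.49 and 9.89 in mutants and 10.34, 8.05 and 8.94 in controls. Control replicate 1 was thus low in Mzb1, Ly6d and Spib and high in Elane among the controls. All 12 of 12 listed myeloid genes were bright enough to test, 7 with a higher and 5 with a lower mutant mean. Elane had the highest difference of that list, 0.87, Csf1r the lowest, −0.37, and the median was 0.07. This median was −0.05 without control replicate 2, 0.27 without mutant replicate 2 and 0.32 after cyclic loess. The summed myeloid intensity was 10474 to 19132 in mutants and 11177 to 17511 in controls, the highest sums being on replicate 1 of each group. Of the 10 listed plasmacytoid dendritic genes 6 were tested, with a summed intensity of 1376 to 2052 in mutants and 1376 to 1986 in controls, and Ccr9, Klk1, Pacsin1 and Cd209d were too dim. Of 8 listed T cell genes 5 were tested and all 5 had a lower mutant mean (median −0.31), Cd4 by only −0.02. Their summed intensity was 174 to 249 in mutants and 208 to 370 in controls. Their means over the 6 arrays ran from 4.89 (Cd4) to 5.88 (Cd3e), near the 95th percentile of the olfactory receptor genes, 5.52. The T cell median was −0.04 without control replicate 3, −0.14 without mutant replicate 2 and −0.57 without control replicate 1. Of 8 listed erythroid genes 4 were tested and all 4 had a higher mutant mean (median 0.30), with sums of 358 to 728 in mutants and 287 to 638 in controls. That median came to 0.10 on leaving out mutant replicate 1 and likewise control replicate 2. The part of these genes in the differences of the 7 genes was not tested. In such bulk samples fewer cells of a type and less RNA per cell cannot be told apart. Spib and Elane were chosen for this comparison after their values were seen.

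**Figure D3:**
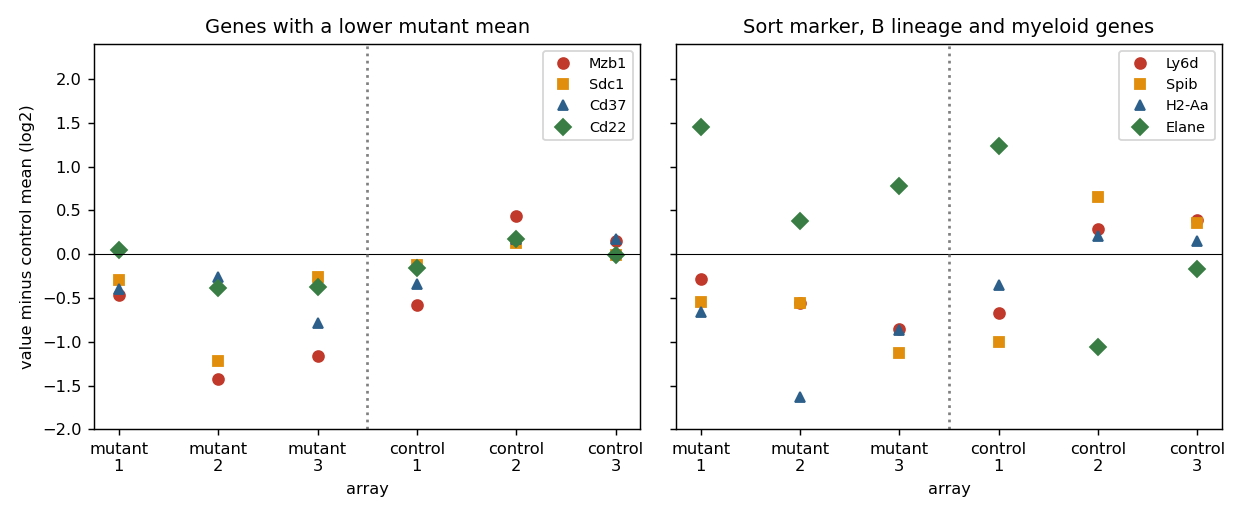
Value minus the control mean (log2, vertical axis) on each mutant array (left of the dotted line) and control array (right) for Mzb1, Sdc1, Cd37 and Cd22 in the left panel and for Ly6d, Spib, H2-Aa and Elane in the right panel. Control replicate 1 lies below the other controls for each gene but Elane, for which it lies above them. Sdc1 is drawn from its brighter probe set.

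Genes whose values ran most like each member were sought among the tested genes. For Mzb1 the nearest was Gt(ROSA)26Sor, the locus that holds the toxin receptor gene in the widely used iDTR strain, with a root mean square difference of 0.16 over 6 arrays, where Mzb1 itself varied by 0.66 around its mean. Gt(ROSA)26Sor was at 5.87, 5.21 and 5.34 in mutants and at 5.95, 6.56 and 6.53 in controls, a difference of −0.87. All its mutant values lay below all its control values, an order that 9.99% of tested genes had. Gt(ROSA)26Sor was picked for its likeness to Mzb1, so a lower mutant mean follows from the search. Next to Mzb1 came the microRNA gene Mir5120, at 0.17. Sdc1 was closest to 9530077C05Rik and to Bcap31, which encodes a sorting protein of the endoplasmic reticulum, at 0.05 each. Like Sdc1, Bcap31 was lowest on mutant replicate 2, at 7.85 against 8.90 and 8.88 on the other mutants and 9.07 to 9.21 on controls. Cd37 was closest to the DNA glycosylase gene Neil1 and to Fbxl5 (0.06 and 0.07), and Cd22 to the deacetylase gene Sirt2 and to Parpbp (0.03 each). The nearest to Cd83 were Larp1 and Il17c (0.05 each), to Ms4a1 Elmod3 and Gprc6a (0.03 each), and to Prdm1 Shpk and Ubqln2 (0.04 each). These are descriptions over 6 arrays from a search of all tested genes.

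Plasma cell genes beyond the 7 were measured in a list of 22, of which 19 were tested. A lower mutant mean was seen for 15 of the 19 (57.5% of all tested genes), 0 passed, and the median was −0.17. The lean was not particular to them. Listed genes of the sorted progenitor (Il7r, Flt3, Kit, Ly6d, Rag2, Dntt, Cd34, Notch1 and Ighm) were lower in 9 of 9. Their median was −0.18, and −0.01 after cyclic loess. Slamf7, which encodes a surface receptor of plasma cells, was at 9.43, 9.15 and 9.42 in mutants and 9.50, 10.07 and 10.02 in controls (−0.53 ± 0.18, SE). Cd27, a receptor gene of the tumour necrosis factor family, differed by −0.31 ± 0.12 and Sec11c, a signal peptidase gene, by −0.58 ± 0.28. Sec11c was −0.24 without mutant replicate 2. The mutant values of Slamf7, Cd27, Ell2 and Cxcr4 lay below all controls, which makes 4 of 19 (9.99% of all tested genes). Xbp1, the transcription factor gene of the secretory programme, differed by −0.22 ± 0.16, and Irf4, which acts with Prdm1, by −0.35 ± 0.21. On leaving out 1 array Xbp1 ran between −0.38 (mutant replicate 1) and −0.09 (mutant replicate 2), and Irf4 between −0.56 (control replicate 1) and −0.21 (control replicate 3), with −0.16 for Irf4 after cyclic loess. Pou2af1 was at −0.12 ± 0.22, which became 0.11 under cyclic loess and 0.06 under a repeat of quantile normalization. Jchain, which encodes the chain that joins antibody units, was too dim to test, at 3.47 to 3.66 in mutants and 3.70 to 3.76 in controls. Cyclic loess brought the median of the plasma cell list to −0.07, and leaving out mutant replicate 2 to −0.09.

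Regulators that act with or against Prdm1 leaned the same way. Of 16 tested genes 14 had a lower mutant mean, 0 passed, and the median was −0.26 (−0.13 after cyclic loess). Bach2, which represses Prdm1 in B cells, was at 8.34, 7.65 and 8.18 in mutants and at 8.32, 8.95 and 9.06 in controls (−0.72 ± 0.24, SE). Control replicate 1 was again among the mutants. Hdac1, a histone deacetylase gene, differed by −0.70 ± 0.21 without overlap of the groups, and Zbtb20 by −0.28 ± 0.14. Differences of Bcl6 (−0.17 ± 0.13), Pax5 (−0.27 ± 0.25) and Irf8 (−0.37 ± 0.31) were close to their SEs, and Irf8 turned to 0.02 without mutant replicate 2 and was −0.65 without mutant replicate 1. Pax5 was −0.07 after cyclic loess, and between −0.53 (mutant replicate 2 left out) and −0.09 (mutant replicate 3 left out). Bcl6 came to −0.09 without mutant replicate 3.

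Partners of the members were also lower on average, with 9 of 12 tested genes at a lower mutant mean, 0 passing and a median of −0.20. That median became 0.02 under cyclic loess and 0.00 when quantile normalization was repeated, and it was −0.31 without control replicate 1. Ptpn6, the phosphatase gene that serves Cd22, was at 8.34, 8.10 and 7.81 in mutants and 8.50, 8.75 and 8.61 in controls. All its mutant values were below all its controls, a difference of −0.54 ± 0.16 (SE) that was −0.33 after cyclic loess. Hsp90b1, the chaperone gene whose product works with Mzb1, was at 10.70, 10.56 and 10.82 in mutants and 10.88, 10.88 and 10.90 in controls, and its difference of −0.19 ± 0.12 turned to 0.05 after cyclic loess. Cd81, a tetraspanin gene of the B cell co-receptor, and Cd79b, of the B cell receptor, differed by −0.26 ± 0.13 and −0.37 ± 0.20, and by −0.03 and −0.13 after cyclic loess.

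For Cd83 the related genes are those of MHC class II. H2-Aa was at 6.05, 5.09 and 5.85 in mutants and at 6.37, 6.92 and 6.86 in controls, a difference of −1.05 ± 0.26 (SE), and H2-Eb1 differed by −0.56 ± 0.15. In neither did the groups overlap, and both kept their size after cyclic loess (−1.02 and −0.60). With Blk, 3 of the 18 tested mature B cell genes had all mutant values below all control values, against 9.99% of all tested genes. H2-Ab1 differed by −0.30 ± 0.17 and by −0.08 after cyclic loess and −0.15 without control replicate 2. The sign was thus opposite to that of Cd83, whose own difference was 0.19. Marchf1 was too dim to test, at 4.22 to 4.29 in mutants and 4.18 to 4.20 in controls. H2-Aa, H2-Eb1 and the Src-family kinase gene Blk (−0.75 ± 0.20) had the lowest p-values in the mature B cell list, in which 13 of 18 tested genes had a lower mutant mean, 0 passed, and the median was −0.18 (−0.06 after cyclic loess and −0.30 without mutant replicate 1). Cd40, a co-stimulatory receptor gene, differed by 0.09 ± 0.12. Cr2, the complement receptor gene of mature B cells, was too dim to test, at 3.79 to 4.25 in mutants and 3.91 to 4.06 in controls.

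**Figure D4:**
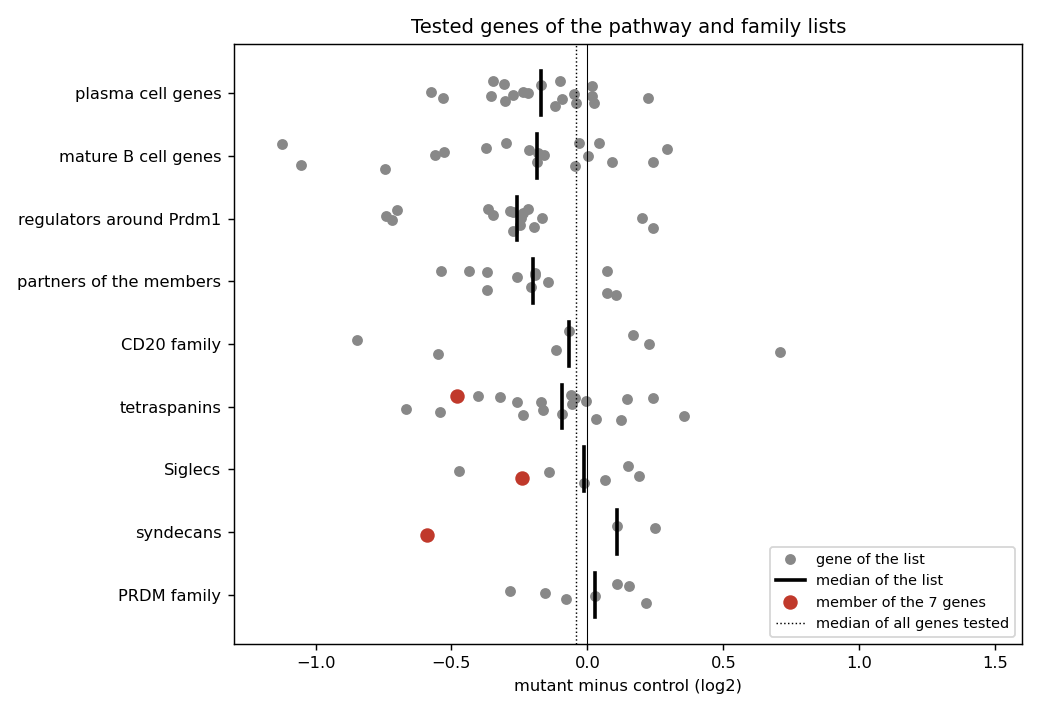
Mutant minus control difference (log2, horizontal axis) of each tested gene in the pathway and family lists (rows), with members of the 7 genes in red, other genes in grey, the list's median as a bar and the median of all tested genes as a dotted line. The regulators around Prdm1 have the lowest median, −0.26, and Sdc1 lies apart from the other tested syndecans.

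The members' own protein families were mixed. Among tetraspanins 14 of 19 tested genes had a lower mutant mean (median −0.09, and −0.27 without mutant replicate 1). Cd53, a tetraspanin gene of white blood cells, was at 9.12, 8.26 and 9.01 in mutants and 9.29, 9.53 and 9.57 in controls (−0.67 ± 0.23, SE), and Tspan32 differed by −0.54 ± 0.19. In both the groups did not overlap, nor did they for Tspan2 and Tspan13, which makes 4 of 19 with all mutant values lower, against 9.99% of all tested genes. Cd53 came to −0.40 without mutant replicate 2, and Tspan32 to −0.34 without mutant replicate 3. Tspan17 did not overlap either and was on the other side of 0, at 0.36 ± 0.12, as 1 of 19 where 5.4% of all tested genes had that order.

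Siglecs had 4 of 7 tested genes lower (median −0.01, with 0.08 without mutant replicate 2 and −0.19 without control replicate 3). Siglecg, which like Cd22 restrains the B cell receptor, was at 7.83, 7.62 and 7.57 in mutants and 7.73, 8.42 and 8.29 in controls (−0.47 ± 0.19, SE). Its low control was again replicate 1. Siglecf (0.19 ± 0.12) and Siglec15 (0.15 ± 0.12) were on the other side of 0, and came to 0.12 and 0.09 without mutant replicate 2.

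Of the syndecans 3 were tested, and Sdc3 (0.11 ± 0.13) and Sdc4 (0.25 ± 0.30) had the opposite sign to Sdc1. Sdc4 was at 6.52, 7.82 and 6.92 in mutants and 6.75 to 6.94 in controls. Its difference came from mutant replicate 2, without which it was −0.12. Without that array Sdc3 came to 0.01 and Sdc1 to −0.28.

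In the CD20 family 7 of 16 genes were bright enough to test, 4 of them lower (median −0.07, turning to 0.02 after cyclic loess, 0.17 without mutant replicate 2 and 0.24 without control replicate 1). Ms4a4c was at 5.22, 4.01 and 4.50 in mutants and 5.53, 5.33 and 5.41 in controls (−0.85 ± 0.27, SE), and at −0.56 without mutant replicate 2. Ms4a6c (−0.55 ± 0.46) turned to 0.07 without mutant replicate 2, where it was at 5.04, and Ms4a15 differed by 0.23 ± 0.14. Ms4a6b was at −0.07 ± 0.14 and turned to 0.02 after cyclic loess. Ms4a4b, too dim to test, was at 3.34 to 3.79 in mutants and 3.74 to 4.72 in controls. In the PRDM family 3 of 7 tested genes were lower (median 0.03, turning to −0.04 with arrays centred on their medians and −0.06 without mutant replicate 2), with Prdm9 at −0.28 ± 0.15, Prdm16 at 0.21 ± 0.15 and Prdm15 at −0.16 ± 0.13. Without mutant replicate 2 Prdm16 was 0.08 and Prdm15 −0.08, and without control replicate 2 Prdm9 was −0.17. No gene of these families passed in limma.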

How the data were processed

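The authors deposited log2 intensities per probe set. RMA is the tool named in the submitters' processing notes; no version or annotation is given in the sources used here. Per the labels' protocols, Trizol-extracted RNA was turned into amplified cDNA and given a biotin label. Of 41345 probe sets, 23521 had 1 gene symbol in a platform annotation table, 1814 had several and 16010 had none listed. The 23521 gave 22180 genes. Mutant was compared with control over the 13308 genes outside the lowest 40% by mean, in limma 3.58.1 under R 4.3.3 (lmFit, eBayes, 2-sided, Benjamini-Hochberg, threshold 0.05), a procedure tested on simulated data. Errors of differences are limma's SEs. Values in mutant and control arrays carry no depth. Alternatives were other filters on dim genes, all probe sets of a gene averaged, median centring, repeated quantile normalization, cyclic loess, another variance prior, the replicate number as a block and each array left out. The 7 genes, the lists and the tests were chosen with earlier results of these data known. Named from each list were the 3 tested genes with the lowest p, partners and paralogs fixed by name, and the 2 genes nearest to each member. Ell2, Cxcr4, Tspan2, Tspan13, Spib and Elane were named outside this rule, after their values were seen. Also outside it were other genes of the cell type lists, such as Ly6d, Il7r, Dntt, Kit, Csf1r, Cd4 and Cd3e, and the Y-linked gene Eif2s3y. Listed genes with no probe set of their own, such as Cd74 and Lyn, were not analysed here. Promoters came from RefSeq, matched by symbol. Searches and figures used Python 3.11.15 and matplotlib 3.10.9.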

Additional observations from a re-analysis of the deposited data

How the results depend on the processing

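Mzb1, Sdc1, Cd37, Cd22 and Cd83 kept their sign in 10 of 10 alternatives that can move the difference of some member. Their ranges were −1.31 to −0.80, −0.76 to −0.28, −0.65 to −0.29, −0.38 to −0.09 and 0.09 to 0.33. Ms4a1 kept its sign in 7 of 10 (−0.03 to 0.11) and Prdm1 in 9 of 10 (−0.03 to 0.20). Averaging probe sets is among the 10 but can move Sdc1 alone, so its outcome was fixed for the other members. The median of the 7 genes was −0.38 to −0.15 on leaving out 1 array, −0.09 after cyclic loess, −0.10 with repeated quantile normalization and −0.31 with arrays centred on their medians. Genes called numbered 0 to 4 on leaving out 1 array: 4 without mutant replicate 1, 1 without mutant replicate 2 and 0 otherwise, and none of them is a member or a listed gene. They numbered 0 in limma under the other alternatives. With the replicate number as a block (replicate block) 0 genes were called and the median of the 7 stayed at −0.24, as it must in a balanced design. Deviations of same-numbered arrays from their group means correlated at r = 0.13, 0.20 and −0.13 for replicates 1, 2 and 3. Arrays of unlike number gave −0.23 to 0.20. With 3 arrays a group these values cannot show whether the numbers pair the samples. Averaging both Sdc1 probe sets gave −0.39. Among 48 of the other named genes, 33 moved by over 1.5 times or turned sign (5 genes) when a single array was dropped. With mutant replicate 2 dropped, 20 did so. Dntt, Kit, Csf1r, Eif2s3y and the genes nearest to members were among those outside this count. Signal near background limits Ms4a1 and Prdm1.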
